A study of Mus musculus with 16 samples.

Results

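The clustered protocadherins are 57 protein-coding genes that lie in 3 neighbouring clusters on mouse chromosome 18, 14 in the alpha cluster, 22 in the beta cluster and 21 in the gamma cluster. They were chosen from the 21851 protein-coding genes of the GENCODE M21 annotation (build mm10) by a rule on symbol and chromosome that uses no measured value. Hematopoietic stem cells (HSCs), sorted from bone marrow as cells with Sca-1, c-Kit and CD150 but without lineage markers, CD34, CD48 and Flt3, had been taken from young C57BL/6 mice of 10 weeks and aged C57BL/6 mice of 20 months. No engineered allele or agent is named for these mice, and marrow was pooled across female animals before sorting. Chromatin immunoprecipitation sequencing (ChIP-seq) was run for H3K4me3, a mark of active promoters, and for H3K27me3 and H2AK119ub1, which the Polycomb repressive complexes deposit. Each of 8 groups (an antibody or the input, at 1 of the ages) had 2 libraries, 16 in all, and the peaks came as 1 pooled list for each mark and age. No value of a single replicate was used here, so the spread between replicates is unknown, no difference between the ages was tested, and every value is a description of 6 lists.

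Protocadherins are cadherin-like adhesion proteins best known from neurons, where single cells express different combinations of them and use these to tell their own branches from those of other cells. In the alpha and gamma clusters each variable first exon has its own promoter and is spliced to 3 constant exons that all genes of the cluster share, whereas each beta gene has its own whole coding exon. The last genes of the alpha and gamma clusters (Pcdhac1, Pcdhac2, Pcdhgc3, Pcdhgc4 and Pcdhgc5) are known as C-type, since they differ in sequence from the others and are not subject to the same random promoter choice. That choice depends on DNA methylation of the promoters and on loops made by CTCF and cohesin between the promoters and distant enhancers.

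The alpha cluster spans chr18:36930184-37187661, the beta cluster chr18:37264938-37524479 and the gamma cluster chr18:37661793-37841873, and all 57 genes are read from the + strand. Pcdhgb8 is annotated as a polymorphic pseudogene and was therefore not a member. None of the 6 lists held a peak within 1 kb of its start (a count of 0). The annotation gives the symbol Pcdha11 to 2 genes, of which the one that starts at 37005203 is called Pcdha10 here, after the RefSeq gene with the nearest start. A gene was said to carry a mark when a listed peak overlapped the window of 1 kb on either side of any of its start sites by at least 1 bp.

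Most of the clustered protocadherins carried none of the 3 marks. No peak of any list lay in the start windows of 40 of the 57 genes, 11 genes had a peak in 1 list, 6 had one in 2 lists, and none had one in 3 or more. The share of all protein-coding genes without a peak in any list was not counted. How far the count of 40 sets this family apart is therefore unknown. H3K27me3 was the mark found most often, at 14 genes in young and 5 in aged HSCs. Among all protein-coding genes H3K27me3 lay at 16.0% in young HSCs and at 8.24% in aged HSCs, and among the clustered protocadherins at 24.6% and 8.77%. The higher share in young HSCs did not hold under every setting. With a −log10 q of at least 2 it was 12.3% of the clustered protocadherins against 13.0% of all genes, within 500 bp of a start 12.3% against 13.3%, and with the lists of both ages at equal length 8.77% against 12.1%. Equal length was reached by keeping only the widest young regions. H3K4me3 lay at 3 genes in young and 0 in aged HSCs, against 33.8% and 23.3% of all genes. H2AK119ub1 lay at 0 genes in young and 1 in aged HSCs, against 1.91% and 14.0% of all genes. H3K4me3 and H3K27me3 lay together at 1 gene in young HSCs and at 0 in aged HSCs, against 2.96% and 0.792% of all genes.

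**Figure D1:**
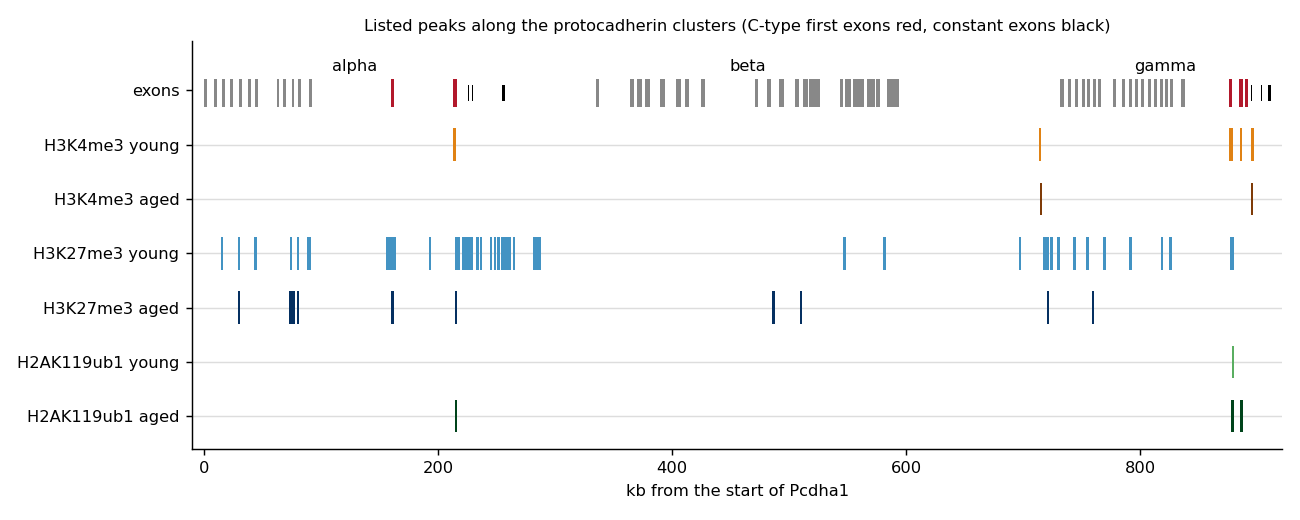
Position of every listed peak along the 3 clusters, in kb from the start of Pcdha1, with 1 row for each mark and age; grey blocks are first exons, red blocks the C-type first exons, black blocks the constant exons, and peaks narrower than 2 kb are drawn 2 kb wide. The young H3K27me3 row holds 29 regions in the alpha cluster, 2 in the beta cluster and 8 in the gamma cluster, and the aged row holds 7, 2 and 1.

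The length of the lists differed between the ages in the same direction as the counts. The young lists held 11371 H3K4me3, 63142 H3K27me3 and 2593 H2AK119ub1 peaks on chromosomes 1 to 19, X and Y, and the aged lists 6723, 20419 and 17768. The part of list length in the differences described here was not tested. In both H3K4me3 lists the fold values correspond to whole reads, with a median of 20 reads at the summit of a young peak and 19 at that of an aged peak. The total depth of the libraries cannot be read from the lists. As a check of the cells, H3K4me3 lay at 7 of 10 HSC genes at each age, among them Hlf, Mecom, Meis1, Procr and Tal1 in both lists, while Ly6a and Slamf1, which encode Sca-1 and CD150, had no H3K4me3 peak in either list. It lay at 0 of 4 myeloid and 0 of 4 T lineage genes at either age, at 1 of 3 B lineage genes at both ages (Ebf1, which also carried H3K27me3), and at 1 of 4 neuronal genes in the young list only (Syt1, together with H3K27me3).

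The C-type genes held all the H3K4me3 and H2AK119ub1 peaks found at start windows of the clusters. H3K4me3 marked 3 of 5 C-type genes in young HSCs and 0 of 52 other members, and no member of either kind in aged HSCs. H3K27me3 marked 2 of 5 C-type genes in young and 1 of 5 in aged HSCs, and 12 and 4 of the 52 other members. Pcdhgc5, the last gene of the gamma cluster (start 37819513), was the only C-type gene with no peak of any list in its start window or first exon.

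At Pcdhac2, the last gene of the alpha cluster (start 37143503), young HSCs had an H3K4me3 peak at chr18:37143464-37143720 that covered the start itself. It was 257 bp wide with a fold enrichment of 3.61 over background, and its summit held 16 reads over a background of 3.70. H3K27me3 lay further into the first exon, at chr18:37144907-37146216 in young HSCs (1310 bp, 3.39-fold) and at chr18:37144824-37145491 in aged HSCs (668 bp, 3.45-fold). These regions began 1404 and 1321 bp after the start, outside the window of 1 kb, so that Pcdhac2 does not count among the H3K27me3 genes above. They overlapped by 585 bp. In aged HSCs an H2AK119ub1 region at chr18:37144736-37145247 (512 bp, 3.17-fold) overlapped the aged H3K27me3 region, beginning 1233 bp after the start. Of the 3028 bp of the first exon, 43.3% lay under H3K27me3 in the young list and 22.1% in the aged list, and 16.9% under H2AK119ub1 in the aged list.

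At Pcdhgc3 (start 37806410), young HSCs had H3K4me3 and H3K27me3 on the same exon. The 3 H3K4me3 peaks lay at chr18:37806390-37806814 (3.65-fold, 20 reads at the summit), chr18:37806924-37807262 (4.48-fold, 23 reads) and chr18:37807773-37807976 (3.71-fold, 18 reads). A young H3K27me3 region at chr18:37806939-37808341 (1403 bp, 3.71-fold) overlapped the latter 2 of these peaks, and another at chr18:37808607-37809426 (820 bp, 2.95-fold) followed it. In all, 36.9% of the 2568 bp first exon lay under H3K4me3 and 69.1% under H3K27me3 in young HSCs. The aged lists held neither mark on this exon. H2AK119ub1 was listed at both ages but over different bases, at chr18:37808741-37808995 in young (255 bp, 2.81-fold) and at chr18:37808199-37808638 in aged HSCs (440 bp, 3.52-fold), 102 bp apart. The young H2AK119ub1 region overlapped the second H3K27me3 region. Both lay more than 1 kb after the start, 2331 and 1789 bp from it.

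At Pcdhgc4 (start 37815079), the H3K4me3 peak of young HSCs at chr18:37815235-37815670 had the highest fold enrichment of the 6 young H3K4me3 peaks along the clusters, 5.08 (436 bp, 23 reads, −log10 q 7.16), above 88.8% of the young list. The aged lists held no H3K4me3 peak there, and instead an H2AK119ub1 region at chr18:37815900-37816110 (211 bp, 2.99-fold), the only H2AK119ub1 region of either list inside a start window of the clusters. Its −log10 q was 1.19, and its fold enrichment was above that of 14.3% of the aged list. H3K27me3 was not listed at Pcdhgc4 at either age.

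At Pcdhac1 (start 37090013), only H3K27me3 was listed. Young HSCs had 3 regions that touched the first exon, at chr18:37089595-37090491 (897 bp, 3.61-fold), chr18:37090820-37091669 (850 bp, 3.09-fold) and chr18:37092119-37092594 (476 bp, 2.91-fold), and together they covered 69.6% of its 2559 bp. Aged HSCs had 1 region, chr18:37090482-37091192 (711 bp, 3.16-fold), which covered 27.8% of the exon and was the widest aged H3K27me3 region of the clusters. It overlapped the first young region by 10 bp and the next by 373 bp.

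**Figure D2:**
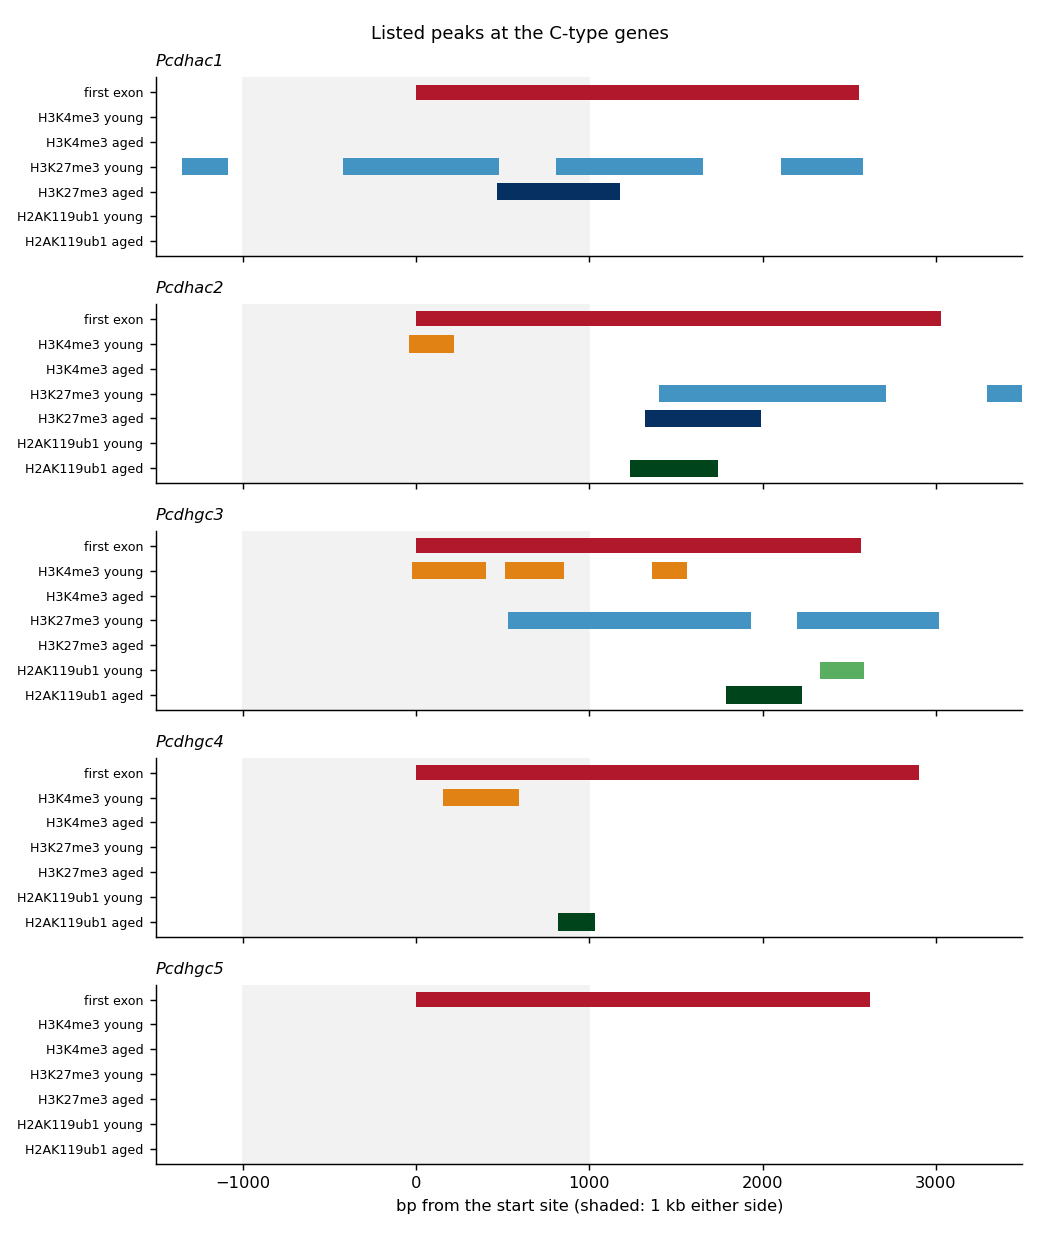
Listed peaks at the 5 C-type genes, in bp from the start site, with the first exon in red, 1 row for each mark and age, and the window of 1 kb either side of the start shaded. H3K4me3 lies at or just after the start in the young rows of Pcdhac2, Pcdhgc3 and Pcdhgc4 and in no aged row, H3K27me3 and H2AK119ub1 lie mostly further into the exon, and Pcdhgc5 is empty.

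A further pair of H3K4me3 peaks lay just after the first constant exon of the gamma cluster (chr18:37825021-37825079). The young peak at chr18:37825407-37825606 (200 bp, 3.61-fold, 16 reads) began 327 bp after the end of that exon, and the aged peak at chr18:37825126-37825403 (278 bp, 4.20-fold, 18 reads) began 46 bp after it. The peaks did not overlap and lay 3 bp apart. The aged peak was the only aged H3K4me3 peak in the 3 clusters. Along the clusters, 0 of 6 young and 0 of 1 aged H3K4me3 peaks overlapped a peak of the other age, against 31.5% and 53.1% of all H3K4me3 peaks. For H2AK119ub1 the counts were 0 of 1 young and 0 of 3 aged, against 50.9% and 7.07% of all regions. Counts this small cannot be set against a percentage with any precision, and a peak 3 bp away counts as not shared.

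In the alpha cluster, the H3K27me3 regions of the genes other than C-type lay mostly upstream of the start sites. Young HSCs carried H3K27me3 at 7 of 14 alpha genes and aged HSCs at 4 of 14, namely Pcdha5, Pcdha10, Pcdha11 and Pcdhac1, all of which carried it at both ages. The share of all genes with H3K27me3 in aged HSCs that also carried it in young HSCs was not counted, here or for the groups below. Pcdha10 had the widest H3K27me3 region of the clusters in young HSCs, chr18:37003477-37005146 (1670 bp, 3.24-fold), which was wider than 94.1% of the young list and ended at −57 bp from the start. The aged region chr18:37004540-37005143 (604 bp, 3.35-fold) lay wholly inside it, and a second aged region, chr18:37005928-37006296 (369 bp, 3.02-fold), lay in the first exon with no young counterpart. At Pcdha11 (start 37010752), the young region chr18:37009599-37010852 (1254 bp, 3.28-fold) crossed the start and contained the whole aged region chr18:37009991-37010543 (553 bp, 3.19-fold). At Pcdha5 (start 36960440), both regions lay at the edge of the window. The young region chr18:36959247-36959596 (350 bp, 3.06-fold) and the aged region chr18:36959188-36959486 (299 bp, 2.74-fold) shared 240 bp, and the aged one reached only 47 bp into the window. The other alpha genes with H3K27me3 in young HSCs alone were Pcdha3, Pcdha7 and Pcdha12. Pcdha1, the first gene of the cluster (start 36930184), carried no mark.

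In the gamma cluster, 6 of 21 genes carried H3K27me3 in young and 1 of 21 in aged HSCs, and no gene did so at both ages. With 1 aged gene, that lack of overlap says little. Beside Pcdhgc3, the genes with the mark in young HSCs were Pcdhga3, Pcdhga4, Pcdhga10, Pcdhga11 and Pcdhgb4 and their regions were narrow, from 200 to 399 bp. Those of Pcdhga3 and Pcdhga10 reached only 61 and 88 bp into the window. In aged HSCs it was Pcdhgb2 (start 37689828), with a region at chr18:37688770-37689076 (307 bp, 2.94-fold) that ended upstream, at −752 bp from the start. Pcdhga1, the first gene of the cluster (start 37661793), carried no mark, and its nearest young region ended upstream, at −1872 bp from the start.

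The beta cluster was almost without peaks. Of its 22 genes, 21 carried no mark, and Pcdhb16 alone had a young H3K27me3 region in its window, chr18:37476782-37477073 (292 bp, 2.53-fold), with a −log10 q of 1.11. The first and last genes, Pcdhb1 (start 37264938) and Pcdhb22 (start 37517871), carried no mark. The other 3 H3K27me3 regions of the cluster, 1 young and 2 aged, lay between genes and were 237 to 423 bp wide. No H3K4me3 or H2AK119ub1 peak lay in the cluster at either age.

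**Figure D3:**
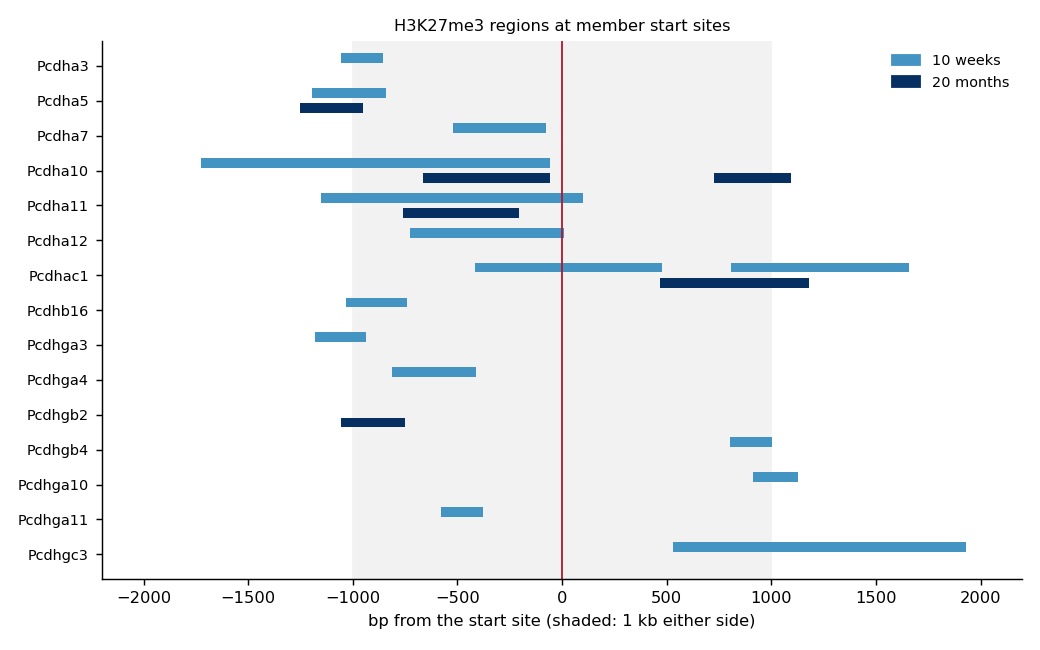
H3K27me3 regions that reached the window of 1 kb (shaded) around the start of each of the 15 clustered protocadherins that carried the mark at either age, in bp from the start (red line), light blue for 10 weeks and dark blue for 20 months. Most regions of the variable genes lie left of the start, those of Pcdhac1 and Pcdhgc3 reach to the right of it, and Pcdha5, Pcdha10, Pcdha11 and Pcdhac1 have both colours.

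Among regions that reached a start window, the position of H3K27me3 relative to the start differed between the C-type genes and the others. Of the 12 young regions at windows of other members, 10 had their middle upstream of the start, with a median of −569.5 bp, and 4 of 5 aged regions did so, with a median of −485 bp. At the C-type genes the middle lay downstream for 3 of 3 young regions and 1 of 1 aged region, by 30 to 1231 bp and by 824 bp. The 3 young regions came from Pcdhac1 and Pcdhgc3 alone, and 1 of them, at Pcdhac1, crossed the start. Regions just outside the window are left out, in both directions. A young region upstream of Pcdhac1 ended at −1086 bp from its start, and 1 at Pcdhac2 began 1404 bp after its start. The 4 young H3K4me3 peaks at start windows, all at C-type genes, had their middle 51 to 683 bp downstream of the nearest start. These are counts of regions in pooled lists, with neighbouring genes sharing a locus, and they were not tested.

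Beyond the start sites, young HSCs had a series of H3K27me3 regions over the end of the alpha cluster. From Pcdhac2 through the constant exons and on into the stretch before the beta cluster, 23 young regions followed each other over 72.0 kb, 15 of them inside the cluster and 8 after its end, the last ending 29.3 kb past it. They were spaced by a median of 1372 bp, with a widest gap of 16.8 kb, and covered 13.3 kb. Many were weak, with −log10 q values from 1.24 to 3.36. Over all 29 young regions of the alpha cluster the median was 1.78, below the value of 2 used as the stricter setting. Under that setting 12 of the 39 young regions along the 3 clusters remained. Of the 23 young regions, 2 touched the last constant exon (chr18:37184946-37187657). They lay at chr18:37184580-37185235 (656 bp, 3.73-fold, −log10 q 3.36) and chr18:37186215-37187105 (891 bp, 2.99-fold, −log10 q 1.76). In aged HSCs 1 region was listed over the same stretch, the one in the first exon of Pcdhac2. The ends of this stretch were set by the young regions themselves, so the counts of the 2 ages over it are not an even comparison. From the start of Pcdhac2 to the end of the cluster, 19.3% of the bases lay under H3K27me3 in young and 1.51% in aged HSCs. That is a ratio of 12.8, against 4.10 over the genome. It sets 15 young regions against 1 aged region of 668 bp, and it was not computed under the stricter setting. It is therefore imprecise.

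Over whole clusters, H3K27me3 covered 6.63% of alpha, 0.204% of beta and 2.10% of gamma in young HSCs, and 1.34%, 0.257% and 0.171% in aged HSCs. Over chromosomes 1 to 19, X and Y it covered 1.55% in young and 0.378% in aged HSCs, and over chromosome 18 it covered 1.08% and 0.256%. The alpha cluster thus lay above the genome at both ages, the beta cluster below it at both ages, and the gamma cluster above it in young and below it in aged HSCs. The covered length in young HSCs was 4.94 times that in aged HSCs in alpha, 12.3 times in gamma and 0.792 times in beta. Over the genome it was 4.10 times. The gamma ratio rests on 1 aged region of 307 bp, with a −log10 q of 1.25. The beta ratio rests on 2 regions at each age, 529 bp in young and 668 bp in aged HSCs. These 2 ratios are too imprecise to set the clusters apart. The median width of a region in the 3 clusters was 418 bp in young and 396 bp in aged HSCs, against 397 and 363 bp over the lists. Of 39 young regions along the clusters, 6 (15.4%) overlapped an aged region, against 15.4% of all young regions. Of 10 aged regions, 5 (50.0%) overlapped a young region, against 66.0% of all aged regions. All 5 were among the 7 aged regions of the alpha cluster.

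H3K4me3 was concentrated at the end of the gamma cluster in young HSCs. From the start of Pcdhgc3 to the end of the cluster, a stretch of 35.5 kb, 5 young peaks covered 4.47% of the bases, against 0.147% over the genome, and 1 aged peak of 278 bp covered 0.784%, against 0.0778%. The genome values are over all bases and not over stretches with promoters alone. With both lists at equal length, 2 young peaks (775 bp) remained along the 3 clusters, at Pcdhgc3 and Pcdhgc4. From Pcdhga1 to the end of the first exon of Pcdhga12, a stretch of 106.7 kb, no H3K4me3 peak was listed at either age (0 and 0), and likewise none from Pcdha1 to the end of the first exon of Pcdha12. The H3K4me3 peak pair outside the clusters, between beta and gamma, lay at Taf7, a gene of the general transcription machinery, at chr18:37643682-37644142 in young (5.74-fold) and chr18:37644377-37644673 in aged HSCs (4.20-fold), 234 bp apart. That stretch also held the widest young H3K27me3 region between the first and the last member, chr18:37647099-37649732 (2634 bp, 3.00-fold), and 1 aged region, chr18:37650482-37650904 (423 bp, 3.55-fold), which lay wholly inside another young one.

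The non-clustered protocadherins and the Hox genes carried each of the 3 marks at a larger share of genes than the clustered protocadherins did. Of the 12 non-clustered protocadherins, which lie as single genes, 9 carried H3K27me3 in young and 6 in aged HSCs, all 6 (Pcdh1, Pcdh8, Pcdh9, Pcdh10, Pcdh12 and Pcdh17) at both ages. H2AK119ub1 lay at 1 of them in young and 6 in aged HSCs, and H3K4me3 at 3 and 6. The 39 Hox genes, known Polycomb targets that also lie in clusters, carried H3K27me3 at 29 and 23 genes and H2AK119ub1 at 16 and 29 genes. Among 31 other protein-coding genes within 500 kb of the clusters, H3K4me3 lay at 13 and 14 genes (41.9% and 45.2%, against 33.8% and 23.3% of all genes). H3K27me3 lay at 3 and 2 of them (9.68% and 6.45%, against 16.0% and 8.24%), of which Pcdh1 and Pcdh12 are themselves non-clustered protocadherins. H2AK119ub1 lay at 1 and 6 (3.23% and 19.4%, against 1.91% and 14.0%). The 3 annotated genes that join alpha and gamma exons carried no mark at either age.

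**Figure D4:**
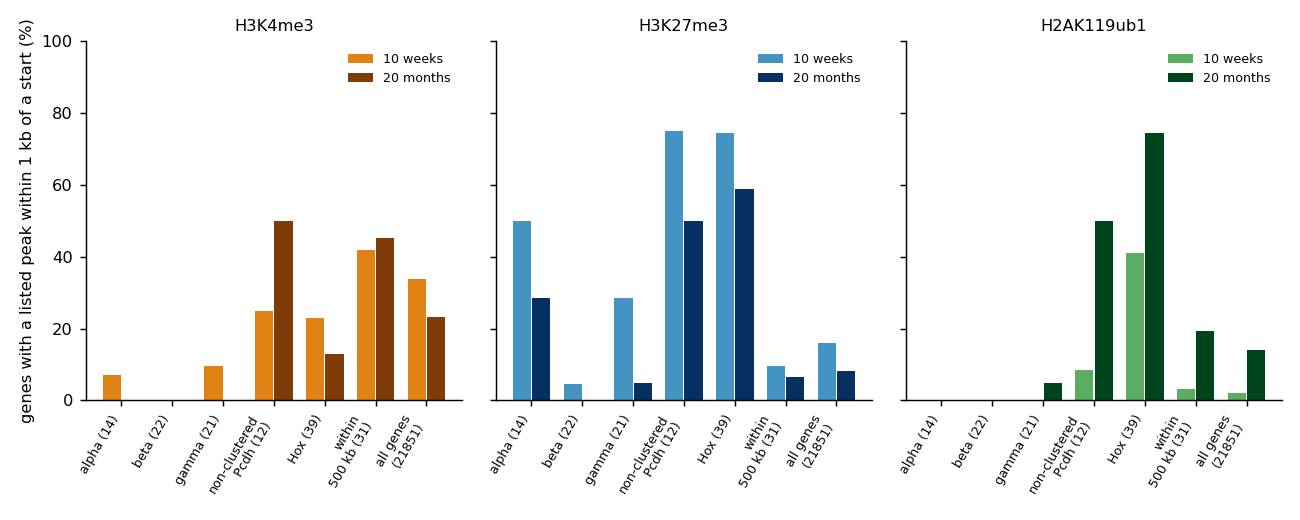
Percent of genes with a listed peak within 1 kb of a start site, for the 3 clusters, the non-clustered protocadherins, the Hox genes, other genes within 500 kb and all protein-coding genes (number of genes in brackets), with light bars for 10 weeks and dark bars for 20 months. The alpha bars for H3K27me3 (50.0% and 28.6%) stand above those of all genes (16.0% and 8.24%), while the beta bars stand near 0 for all 3 marks.

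The genes known to act on promoter choice at the clusters mostly carried H3K4me3. Of 15 factors for looping, DNA methylation and silencing, 10 carried H3K4me3 in young and 9 in aged HSCs, and 0 carried H3K27me3 at either age. Those with H3K4me3 at both ages were the cohesin genes Rad21, Stag1 and Stag2, the cohesin loader Nipbl, the DNA methyltransferase Dnmt3a and Tet2, an enzyme that oxidizes methylated cytosine. Ctcf, Smchd1 and Wapl had an H3K4me3 peak in the aged list only, and Dnmt3b, Smc1a, Smc3 and Tet3 in the young list only. The share of all genes with H3K4me3 at a single age was not counted. H2AK119ub1 lay at Smc3 and Tet3 in aged HSCs (13.3% of the factors, against 14.0% of all genes). Among 3 intracellular partners of protocadherins, Ptk2, a focal adhesion kinase gene, carried H3K4me3 at both ages, and the receptor gene Ret carried H3K27me3 at both ages. H2AK119ub1 lay at Ret and at the kinase gene Ptk2b in aged HSCs.

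The start windows of the 3 clusters differed in CpG content, measured as the observed over the expected number of CpG in the 2 kb window. The median was 0.641 in alpha, 0.334 in beta and 0.513 in gamma, against 0.484 over all genes. No beta gene exceeded 0.475, and no alpha gene fell below 0.520. The beta cluster, with the lowest CpG content, was thus also the one with the fewest marks. The 14 genes with young H3K27me3 had a median of 0.648 and the 43 without it 0.451. Within alpha the medians were 0.663 for the 7 genes with the mark and 0.606 for the 7 without it, and within gamma 0.611 for 6 and 0.501 for 15, so the gap within these clusters was smaller than over all 57 genes. Pcdhgc3, with both H3K4me3 and H3K27me3, had the highest value of all members, 0.835, and Pcdhgc5, with no mark, the lowest of the C-type genes, 0.251. In alpha the value alone did not separate the genes, since Pcdha8 had 0.702 with no mark and Pcdhac1 0.538 with H3K27me3 at both ages. The C-type windows were also richer in G and C, with 50.2 to 54.8% against 38.8 to 47.2% at the other members. Whether base composition plays a part in the marks was not tested.

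**Figure D5:**
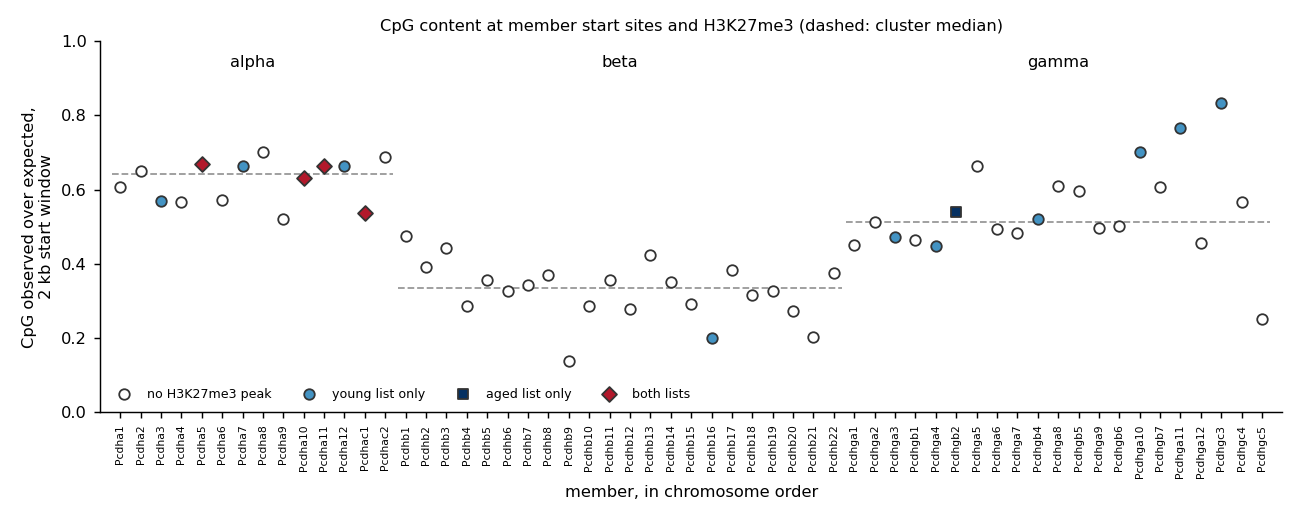
CpG observed over expected in the 2 kb window around the start of each of the 57 genes, in chromosome order, with the symbol showing in which H3K27me3 list the gene had a region and dashed lines at the cluster medians (0.641, 0.334 and 0.513). The beta genes lie lowest and 1 of them carries the mark, whereas the alpha carriers lie at 0.538 to 0.668, a range that alpha genes without the mark share.

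The first exons of a cluster resemble each other, and reads that fit several places can be lost or misplaced. Of all windows of 60 bases, the length of the reads, 85.1% in alpha, 89.9% in beta and 97.2% in gamma occur once in the genome. In the start windows the medians were 92.9%, 100% and 100%, and the lowest values 85.4%, 90.3% and 90.7%. Of the 78 peaks listed between the first and the last member, 77 lay over bases where every such window is unique. Bowtie2 at its default setting reports a single place for a read that fits several, and whether such reads were later filtered out is not given in the sources used here. The part of uniqueness in the number of listed peaks was not tested.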

How the data were processed

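ChIP-seq peaks of H3K4me3, H3K27me3 and H2AK119ub1 in HSCs were used. Per the labels and the study's methods, the authors digested cross-linked chromatin with micrococcal nuclease, sonicated it, and placed single reads on mm10 with Bowtie2 at default settings. MACS2 2.2.6 is among the tools in the submitters' processing notes. The deposited lists have the layout of MACS narrow peaks (H3K4me3) and broad regions (H3K27me3 and H2AK119ub1) and give the position of each peak. They also give, as deposited, a score, a ratio (the linear fold over background), and the −log10 of the p-value and q-value. In the broad lists these are averages over a region. The H3K4me3 peak names carry 2 library numbers and the broad ones 1, so whether both replicates went into the broad lists is uncertain. Replicates being pooled, a peak of a single library can enter a list.

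Peaks were set against GENCODE M21 start sites (41438 in all, 66 of the members), 1 kb either side, by an overlap of at least 1 bp, using pandas 2.3.3, numpy 2.4.6, scipy 1.17.1 and matplotlib 3.10.9 (Python 3.11.15). The steps were tested on simulated data. Reads at H3K4me3 summits were recovered from fold and −log10 p, counted whole within 0.05%. Precision is limited by the unknown depth and by 1 list per mark and age. Alternatives were a stricter q, equal list lengths, other windows and a larger overlap. The rule for the members uses no measured value, but the members (this gene family) and the gene lists were chosen with earlier results of these data known. Named with values were the C-type genes, the first and last gene of each cluster, each gene with H3K4me3 or H2AK119ub1 at its start, each with H3K27me3 there in aged HSCs, and the 3 widest H3K27me3 regions per age. Others were counted, and named where 5 or fewer. Base sequences of the locus and some marker genes are not reported here.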

Additional observations from a re-analysis of the deposited data

How the results depend on the processing

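The 18 values (genes marked, bases covered and regions shared, for each of 6 lists) were computed under 66 alternatives. Of these, 45 stayed within 1.5 times the reported value, but some of the 45 could not have moved. A count of 0 cannot fall under a stricter setting, and equal length leaves the genes and bases of the shorter list unchanged. The tally is therefore no measure of stability. The alternatives that went beyond 1.5 times were as follows. With a −log10 q of at least 2, H3K27me3 lay at 7 young genes and 1 aged gene (Pcdha10) in place of 14 and 5 (12.3% and 1.75% of the members against 13.0% and 3.28% of all genes), H2AK119ub1 at 0 aged genes in place of 1, H3K27me3 covered 9340 and 1272 bp in place of 21381 and 4429, H2AK119ub1 covered 0 and 440 bp in place of 255 and 1163, and 2 young and 2 aged H3K27me3 regions were shared in place of 6 and 5. With both lists of a mark shortened to equal length, young H3K27me3 lay at 5 genes, as many as in aged HSCs, and aged H2AK119ub1 at 0. The covered length was then 775 bp for young H3K4me3 (in place of 1861), 13392 bp for young H3K27me3 and 0 bp for aged H2AK119ub1. With 500 bp either side of the start, H3K27me3 lay at 7 young and 3 aged genes (12.3% and 5.26% against 13.3% and 5.67%). With 2 kb, aged H2AK119ub1 lay at 3 genes. With an overlap of at least 200 bp, young H3K27me3 lay at 9 genes (15.8% against 15.2%). With an overlap of 50% of the region, 1 young H3K27me3 region was shared. With the whole first exon added to the window, an alternative chosen after seeing the data, H2AK119ub1 lay at 1 young and 3 aged genes. At equal list lengths the young H3K27me3 list held 20419 in place of 63142 regions. The widest regions were kept for H3K27me3 and H2AK119ub1, and the peaks with the highest −log10 q for H3K4me3. Narrow young H3K27me3 regions were thus dropped first, so this is not a comparison at matched depth. For young H3K27me3, the share of members was then 8.77% and that of all genes 12.1%. No paired analysis was possible because the lists are pooled over replicates, and leaving out a replicate was not possible for the same reason.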
